A study of Homo sapiens with 18 samples.

Results

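The 48 genes described here encode the factors that make ribosomes in the nucleolus, and they were named as a list by function: RNA polymerase I subunits and regulators, abundant nucleolar proteins, the proteins of box C/D and box H/ACA small nucleolar ribonucleoproteins (snoRNPs), and assembly factors of the small and the large ribosomal subunit. All 48 were found by symbol among the 38716 gene symbols of the tables. They were measured by mRNA-seq and by Ribo-seq, in which only the stretches of mRNA covered by a ribosome survive nuclease and are read as footprints. The cells were IMR90, normal diploid fibroblasts from fetal human lung, and the methods do not say whether 1 isolate gave all of these libraries. The young group was of low passage and still dividing, and the old group was of high passage and in replicative senescence per the study. Its mRNA still held part of the young level of the proliferation markers given below. The ICM group was low-passage cells kept with inflachromene (ICM) for 6 days, as the study's results describe its Ribo-seq data. ICM is an inhibitor of HMGB1 and HMGB2, which are abundant non-histone proteins of chromatin. Each group had 3 replicates, grown independently per the methods, and every lysate gave 1 library of each assay, which made 18 libraries. The series' design text counts 4 young, 4 old and 2 ICM samples for these assays, and the labels, which give 3 of each, were followed here. No group carried an introduced gene or deletion, and the labels do not say whether the young cells of these libraries received vehicle.

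Ribosomes are built in the nucleolus, where RNA polymerase I transcribes a long precursor rRNA. Box C/D snoRNPs guide methylation of this RNA and box H/ACA snoRNPs guide its conversion of uridine to pseudouridine, while a series of assembly factors fold, cut and export the small and the large subunit. The process takes much of the energy of a dividing cell, it is driven by the transcription factor MYC, which binds the E-box sequence CACGTG with its partner MAX, and nucleoli are known to enlarge and fuse in senescent fibroblasts.

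The E-box is shown first because MYC is itself 1 of the 48 genes and because most of the others are known as MYC targets. RefSeq promoter windows on GRCh38.p14, from 250 bases before to 50 bases after the annotated start, were on hand for 40 of the 48 genes, and TCOF1, MYC, NOLC1, NOP58, RRP12, RRP1B, BOP1 and DDX18 had none. CACGTG, which reads the same on both strands, was present in the window of 17 of the 40 genes (42.5%). Over all windows of the same length it was present in 7.26% of 35116, and among genes tested in mRNA-seq with a window in 12.5% of 10384. The windows of 6 genes that the results turn on are printed 5′ to 3′ on the strand of the gene, with the E-box in capitals and the flanking bases in lower case.

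FBL (chr19:39846356-39846385, minus strand): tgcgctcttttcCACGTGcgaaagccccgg
UTP20 (chr12:101280083-101280112, plus strand): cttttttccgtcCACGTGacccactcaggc
MRTO4 (chr1:19251807-19251836, plus strand): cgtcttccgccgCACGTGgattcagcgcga
PES1 (chr22:30591880-30591909, minus strand): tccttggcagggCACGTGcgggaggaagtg
NOC3L (chr10:94362903-94362932, minus strand): tagggacttcggCACGTGtgtcattccccg
NOP10 (chr15:34343130-34343159, minus strand): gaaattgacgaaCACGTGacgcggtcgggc

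Counted with the annotated start as position 0, the E-box began at 6 in FBL, -10 in UTP20, 14 in MRTO4, 13 in PES1, 19 in NOC3L and -11 in NOP10, which held another at -170. A match is a string of letters in a window and says nothing of binding. The genes with an E-box held both the strongest fall of mRNA in the set (FBL) and genes that rose (NOP10 and PES1). In ICM against young cells 12 of the 17 genes with the motif fell and 2 rose, at a median log2 change of -0.27, and 19 of the 23 without it fell and 1 rose, at a median of -0.34, where 36.1% of all genes tested fell and 34.9% rose. In old against young cells the medians were -0.50 with the motif and -0.40 without it.

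Depth and library identity set how far the footprints can be read. In mRNA-seq each library held 7902300 to 14144300 counted reads, of which 26731 to 47345 fell in the 48 genes. The Ribo-seq libraries were far more uneven, with 46170 CDS reads in the smallest and 1718430, or 37.2 times as many, in the largest, and the 48 genes held 162 to 8796 of them. The median gene of the set had 181.5 footprints summed over the young libraries, 119 over the old and 18 over the ICM libraries, and 14 genes had fewer than 10 in ICM. Some Ribo-seq libraries also held footprints of genes whose mRNA was near 0 in their own group. Summed over 20 genes that were high in young mRNA and under 2% of that level in ICM mRNA, footprints were at 1817 to 2001 CPM (counts relative to the size of the library, scaled by TMM) in young cells and at 44.3, 191 and 776 CPM in ICM replicates 1, 2 and 3, where ICM mRNA was at 9.41 to 10.4 CPM. By 7 genes high in ICM mRNA and low in the others, young replicate 1 held 654 CPM and old replicate 2 held 805 CPM in footprints, where the other young and old libraries held 68.7 to 91.0. These 3 lysates, young replicate 1, old replicate 2 and ICM replicate 3, were left out in an alternative that is given beside the footprint counts. Whether they hold reads of other libraries was not tested, and their footprint levels are read with that limit. The alternative kept ICM replicate 2, at 191 CPM for the 20 young genes, so it is not free of such footprints. In young replicate 1 and old replicate 2 CDS reads made up 34.4% and 15.0% of all reads of the library, against 54.7% to 88.8% in the other Ribo-seq libraries. The 7 fibroblast markers were present in every library and summed to 11058 to 30382 CPM in mRNA, with the lowest sums in ICM. Over 4 immune markers the mRNA sum was 19.5 to 21.6 CPM in young, 32.4 to 35.6 in old and 53.9 to 66.1 in ICM cells, nearly all of it CD68, with CD3E at 0 in all mRNA libraries. Over 4 epithelial markers it was 14.5 to 17.4 CPM in young, 1.94 to 2.503 in old and 0.526 to 1.19 in ICM cells, led by KRT19, with KRT5 at 0 in young and ICM cells. The 4 endothelial markers summed to 0.620 to 1.04 CPM in young and old and 3.61 to 4.49 in ICM cells, with VWF at up to 3.90 and CDH5 at 0 in all mRNA libraries. The 5 proliferation markers summed to 546 to 575 CPM in young, 156 to 181 in old and 65.2 to 70.0 in ICM mRNA, so that the fall of the 48 genes went with a fall of cycling-cell genes, and the part of the marker differences in the results was not tested.

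Old and ICM cells both had less ribosome biogenesis mRNA than young cells, relative to all mRNA reads. Summed over the 48 genes, the share of mRNA reads was highest in young cells at 0.427% ± 0.0148, lowest in old cells at 0.277% ± 0.00703 and 0.328% ± 0.00275 in ICM cells (mean ± SD, n = 3), and the 3 groups did not overlap. Every old library was below every ICM library, with a highest old value of 0.285% (95% exact binomial interval 0.282% to 0.288%) and a lowest ICM value of 0.325% (0.321% to 0.328%). These shares are of all counted reads, as in total count scaling. With that scaling the median log2 change of all genes in ICM against old was itself 0.11, and that of the 48 genes was 0.17. With TMM the medians were -0.0080 and 0.046. The sum leans on abundant genes, with 7547 reads of NCL and 5230 of NPM1 among 42277 in ICM replicate 1. In footprints young cells stood at 0.521% ± 0.0180, old cells at 0.361% ± 0.0469 and ICM cells at 0.366% ± 0.0159 (n = 3). Young libraries were again above all the others, but old and ICM libraries overlapped, since old replicate 2, with 226 footprints of the set, stood at 0.414% (0.362% to 0.472%). An exact permutation test of 3 against 3 libraries cannot give a p under 0.1, so none is given for these sums. The intervals cover counting error only. In bulk samples like these, fewer cells that express a gene and less RNA per cell cannot be told apart. All levels and changes given here are relative to the library, and amounts per cell were not measured. The study itself reported less newly made nuclear and nucleolar RNA after 6 days of ICM and on passage into senescence. A relative rise is thus not shown to be a rise per cell.

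**Figure D1:**
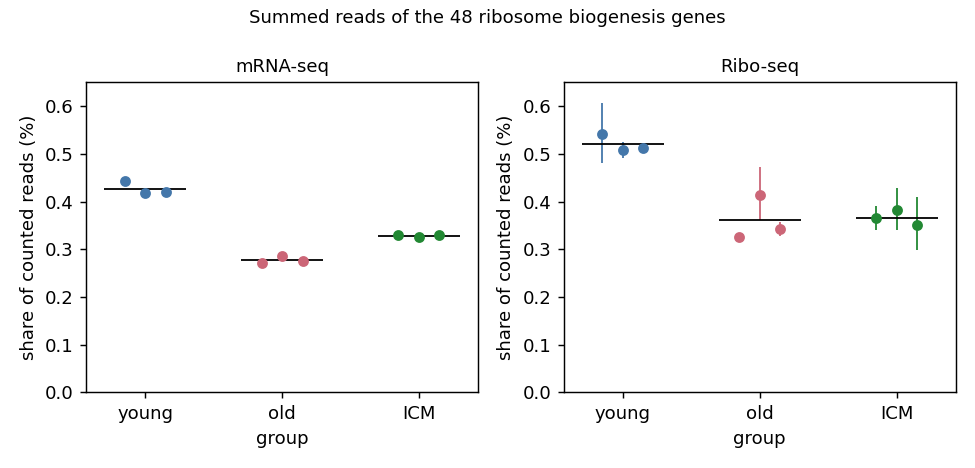
Share of counted reads, in percent, that fell in the 48 genes in each library (points, with exact binomial 95% intervals; black lines are group means), by group, for mRNA-seq on the left and Ribo-seq on the right. The young libraries lie above the old and ICM libraries in both assays, and in mRNA-seq the old libraries, at 0.271% to 0.285%, lie below the ICM libraries, at 0.325% to 0.330%.

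The genes differed widely in level. Per kilobase of coding sequence and after scaling to the CDS reads of the library (CPM per kilobase), with the reads of the 3 libraries of a group added up, young mRNA ran from 6.17 for UTP20, a very large scaffold of the early small subunit, to 849 for NPM1 (nucleophosmin, the main chaperone of the nucleolus). Next in order were NCL (nucleolin) at 467, NOP10 at 354, NHP2 at 226 and FBL at 165. The median gene of the set stood at 44.6 in young, 30.6 in old and 34.6 in ICM cells, against 15.9, 14.8 and 15.6 for all genes tested in mRNA-seq with a coding length. The ratio of footprint to mRNA level over the CDS had a median of 1.02 over the 40 genes that passed the Ribo-seq filter in young cells, where that of 4618 genes was 1.12. In old cells the medians were 1.03 and 1.06, and in ICM cells 0.839 and 1.12. Most footprints behind these ratios came from 1 library of each group. Replicate 3 held 1718430 of 2457710 in young, replicate 1 held 1672650 of 2310900 in old, and replicate 1 held 224982 of 350091 in ICM. The ratios thus carry no spread between replicates, and their differences between groups were not tested. NPM1 had a low ratio in all 3 groups (0.598, 0.488 and 0.428). It has many processed copies in the genome, between which reads can be divided, so its own level is uncertain.

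mRNA of most of the 48 genes fell in both states. In ICM against young cells, edgeR's quasi-likelihood test over 13173 genes called 37 of the 48 lower and 4 higher at a Benjamini-Hochberg adjusted p under 0.05, with a median log2 change of -0.36 (all genes -0.0070). The background in this comparison was wide: 71% of all genes tested were called, 36.1% lower and 34.9% higher. Between old and young cells 41 of the 48 fell and 2 rose, with a median log2 change of -0.49 (all genes -0.015), where 66.1% of all genes were called, 33.7% lower and 32.4% higher. Replicates of the compared groups did not overlap, with the gene lower, for 40 and 41 of the 48 genes, and for 37.6% and 34.4% of all genes tested. A fall of more than 1 log2 unit was called in 5 genes in ICM (FBL, UTP20, RRP15, TCOF1 and MRTO4) and in 3 in old cells (FBL, UTP20 and NOLC1), so that for most of the set the falls were moderate.

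**Figure D2:**
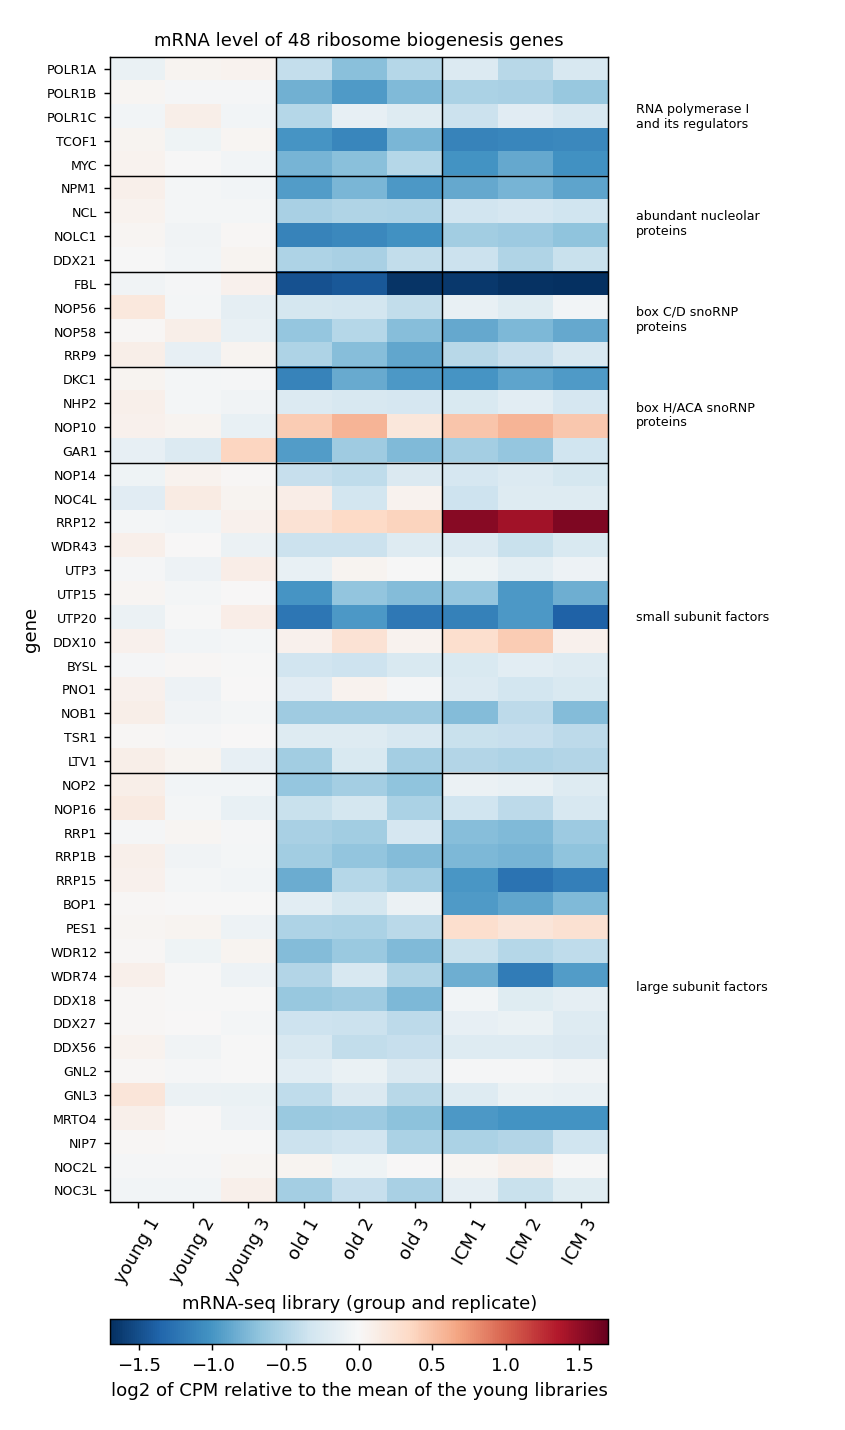
mRNA level of the 48 genes (rows, by role) in each of the 9 mRNA-seq libraries (columns), as log2 of the CPM relative to the mean of the 3 young libraries; blue is lower and red is higher than young. Most rows are blue in all 6 old and ICM libraries, FBL is the darkest blue row, RRP12, NOP10 and DDX10 are red in both states, and PES1 is red in ICM alone.

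All 5 genes of RNA polymerase I and its regulators fell in both comparisons, where 36.1% of all genes fell in ICM and 33.7% in old cells. The same background applies to the other role groups below, which hold few genes each. POLR1A, the largest subunit of the polymerase, was at 55.3, 61.8 and 62.1 CPM in young, 45.0, 36.4 and 42.7 in old and 50.6, 43.0 and 49.3 in ICM libraries. The young libraries were the highest, and the change was -0.33 ± 0.083 (adjusted p = 0.00138) in ICM and -0.54 ± 0.085 (adjusted p = 8.34e-06) in old cells on the log2 scale, where ± is the standard error (SE) throughout. POLR1B, the second-largest subunit, fell by more, with log2 changes of -0.58 ± 0.090 and -0.85 ± 0.094, and POLR1C, which RNA polymerase III shares, by less (-0.29 ± 0.099 and -0.27 ± 0.10). TCOF1, the treacle protein that keeps the polymerase at ribosomal DNA, fell by about as much in both states (-1.11 ± 0.081 and -0.96 ± 0.080). MYC was at 69.0, 65.6 and 64.0 CPM in young, 38.3, 40.4 and 47.3 in old and 32.6, 36.2 and 32.3 in ICM libraries. No library of the other groups reached the young range, and the log2 change was -0.97 ± 0.081 (adjusted p = 3.22e-10) in ICM and -0.65 ± 0.079 (adjusted p = 2.11e-07) in old cells. MYC was also lower in ICM than in old cells, with a log2 difference of -0.32 ± 0.083 (adjusted p = 0.00195), which turned to 0.16 when mRNA reads were thinned to the Ribo-seq depth.

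The 4 abundant nucleolar proteins fell in both comparisons. NPM1 was at 757, 698 and 694 CPM in young, 369, 419 and 365 in old and 393, 413 and 386 in ICM libraries. Old and ICM libraries overlapped each other and lay far below young, with log2 changes of -0.85 ± 0.066 (adjusted p = 1.12e-10) in ICM and -0.90 ± 0.066 (adjusted p = 7.41e-11) in old cells. NCL, which binds rRNA and the chromatin of ribosomal genes, was at 738, 692 and 694 CPM in young, 484, 497 and 490.1 in old and 567, 579 and 561 in ICM libraries. Here the groups did not overlap and stood in the order young, ICM, old, and the log2 change was -0.31 ± 0.058 (adjusted p = 4.79e-05) in ICM and -0.53 ± 0.058 (adjusted p = 4.7e-08) in old cells. NOLC1 (Nopp140, a chaperone of snoRNPs) showed the same order with larger falls, -0.63 ± 0.062 and -1.08 ± 0.064. DDX21, an RNA helicase that acts on both precursor rRNA and polymerase I transcription, fell by 0.42 and 0.50 on the log2 scale.

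Box C/D snoRNP proteins held the strongest fall of the set. FBL (fibrillarin), the methyltransferase of these particles, was at 112, 114 and 122 CPM in young, 41.7, 42.9 and 36.6 in old and 37.2, 36.1 and 35.4 in ICM libraries. All 6 old and ICM libraries lay at 42.9 CPM or less and all young libraries at 112 or more, with a log2 change of -1.68 ± 0.071 (adjusted p = 2.32e-15) in ICM and -1.52 ± 0.071 (adjusted p = 3.15e-14) in old cells. The difference between ICM and old cells did not pass the test (-0.16 ± 0.076, adjusted p = 0.0755). The scaffold proteins of the same particle moved by less than FBL. NOP58 changed by -0.84 ± 0.079 in ICM and -0.62 ± 0.079 in old cells and both passed. Its partner NOP56 was at 139.9, 121 and 111 CPM in young, 100.3, 99.6 and 92.3 in old and 113, 107 and 119 in ICM libraries. The ICM libraries overlapped the young ones, and NOP56 fell in old cells, with a log2 change of -0.34 ± 0.076 (adjusted p = 0.000394), where ICM gave -0.13 ± 0.075 (adjusted p = 0.13) and the difference of ICM from old was 0.22 ± 0.075 (adjusted p = 0.0161). RRP9, which is specific to the U3 particle, fell in both (-0.37 ± 0.093 and -0.71 ± 0.097).

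In the box H/ACA particle, 3 of 4 proteins fell and the smallest rose. DKC1 (dyskerin), its pseudouridine synthase and a component of telomerase, was at 88.4, 83.6 and 84.2 CPM in young, 38.7, 47.2 and 43.4 in old and 42.7, 45.9 and 43.8 in ICM libraries. The young libraries lay well above all others, and the log2 change was -0.95 ± 0.072 (adjusted p = 7.69e-11) in ICM and -0.98 ± 0.073 (adjusted p = 8.93e-11) in old cells. GAR1 fell by 0.55 and 0.77 on the log2 scale and NHP2 by 0.24 and 0.26. NOP10 stood at 85.0, 83.4 and 73.8 CPM in young, 108, 120.0 and 92.2 in old and 112, 120.5 and 111 in ICM libraries. Relative to the library, it was higher in every old and ICM library than in any young one. The log2 changes were 0.50 ± 0.082 (adjusted p = 1.08e-05) in ICM and 0.41 ± 0.083 (adjusted p = 0.000164) in old cells.

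Of 13 small subunit factors, 10 fell and 2 rose in ICM cells, and 8 fell and 1 rose in old cells. Of all genes, 36.1% fell and 34.9% rose in ICM, and 33.7% fell and 32.4% rose in old cells. RRP12, a HEAT-repeat protein that takes part in the late maturation and export of precursor subunits, was at 35.4, 34.9 and 38.0 CPM in young, 42.7, 45.4 and 47.1 in old and 105, 97.4 and 108 in ICM libraries. The 3 groups did not overlap and the ICM libraries were over 2 times the old ones, with log2 changes of 1.52 ± 0.071 (adjusted p = 1.25e-14) in ICM and 0.32 ± 0.075 (adjusted p = 0.000721) in old cells and a difference of ICM from old of 1.20 ± 0.068 (adjusted p = 6.22e-13). When mRNA reads were thinned to the Ribo-seq depth the value in old cells was -0.17. At the other end, UTP20 was at 32.0, 34.2 and 37.1 CPM in young, 14.7, 17.4 and 14.8 in old and 15.5, 17.4 and 13.2 in ICM libraries. Old and ICM libraries overlapped, all below young, with log2 changes of -1.17 ± 0.10 (adjusted p = 6.82e-10) and -1.13 ± 0.10 (adjusted p = 1.99e-09). TSR1, a GTPase-like factor of late cytoplasmic steps, was at 103, 100.4 and 102 CPM in young, 87.5, 87.2 and 84.5 in old and 78.7, 77.5 and 74.9 in ICM libraries. It fell moderately and without overlap (-0.40 ± 0.060, adjusted p = 3.16e-06 in ICM, -0.24 ± 0.060, adjusted p = 0.00141 in old cells). Another small subunit processome protein, UTP15, fell by 0.80 and 0.78, and NOB1, the endonuclease that makes the 3′ end of the small subunit rRNA, by 0.63 and 0.60 on the log2 scale. LTV1, NOP14, WDR43 and BYSL also fell in both states, with log2 changes between -0.51 and -0.22. PNO1 and NOC4L fell in ICM (-0.27 ± 0.079 and -0.28 ± 0.11) and did not pass in old cells (-0.035 ± 0.078 and -0.073 ± 0.11). The RNA helicase DDX10 rose in ICM (0.27 ± 0.095) and did not pass in old cells (0.14 ± 0.097), and UTP3 passed in neither.

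Of 18 large subunit factors, 17 fell in old cells, and in ICM cells 12 fell and PES1 rose, and the difference between these counts was not tested. Of all genes, 33.7% fell in old cells, and in ICM cells 36.1% fell and 34.9% rose. RRP15, which is needed for early large subunit precursors, was at 38.7, 35.7 and 35.7 CPM in young, 20.4, 26.2 and 24.7 in old and 18.4, 15.4 and 16.4 in ICM libraries. The groups stood in the order young, old, ICM without overlap, and the log2 change was -1.13 ± 0.097 (adjusted p = 6.3e-10) in ICM and -0.61 ± 0.093 (adjusted p = 5.07e-06) in old cells. MRTO4, an assembly factor that resembles the stalk protein P0 and holds its place on the precursor, was at 73.8, 69.8 and 65.7 CPM in young, 45.0, 45.4 and 42.8 in old and 35.3, 34.5 and 34.3 in ICM libraries. Its groups stood in the same order, with log2 changes of -1.0 ± 0.070 (adjusted p = 1.61e-11) and -0.65 ± 0.069 (adjusted p = 2.68e-08). WDR74 was at 26.3, 24.8 and 23.4 CPM in young, 17.5, 20.5 and 17.3 in old and 13.9, 10.9 and 12.9 in ICM libraries. It fell by 0.97 in ICM and 0.41 in old cells on the log2 scale, again with ICM the lowest. RRP1, RRP1B, NIP7, NOP16, NOC3L and DDX56 fell in both states by 0.23 to 0.74. NOP2 (an rRNA methyltransferase), DDX18, GNL2 and GNL3 (nucleostemin) fell in old cells and did not pass in ICM cells, where their log2 changes were between -0.15 and -0.033. For DDX27 the fall in ICM was -0.16 ± 0.067 (adjusted p = 0.0444), and this call was lost in 15 of 19 alternative fits. NOC2L passed in neither comparison.

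**Figure D3:**
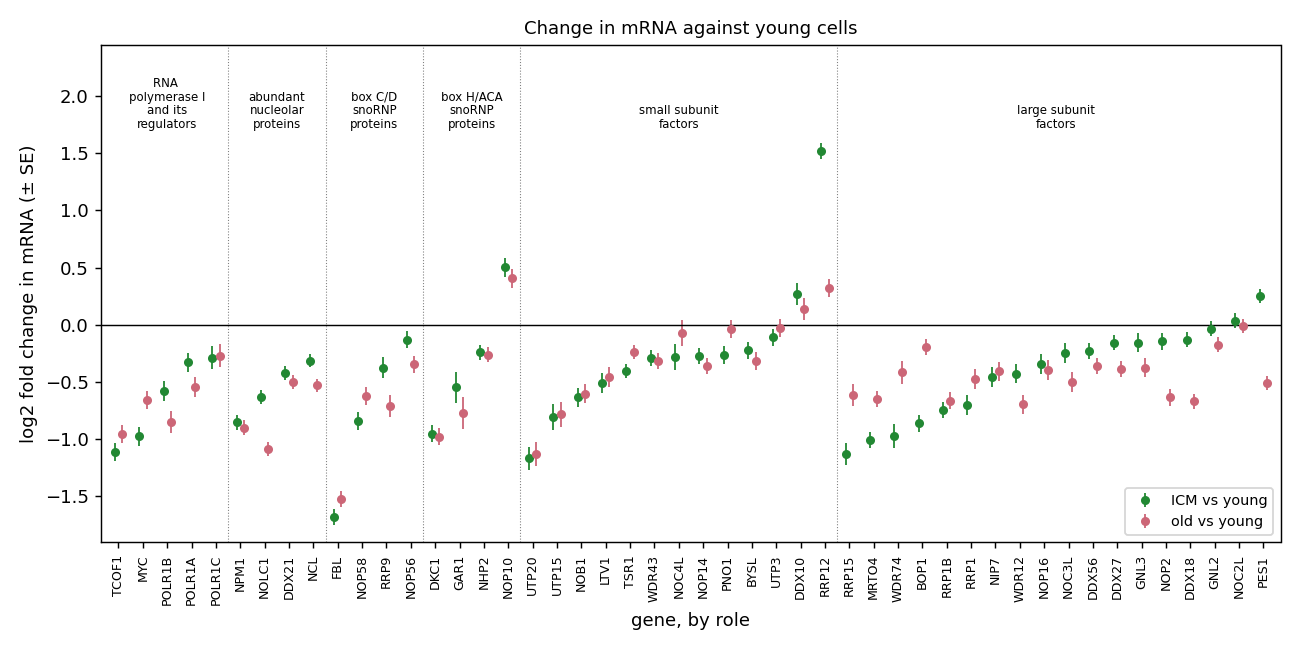
log2 fold change in mRNA against young cells (± SE, edgeR) for each of the 48 genes, grouped by role and ordered by the change in ICM, with ICM in green and old in red. Most points lie below 0 in both comparisons, FBL is lowest at -1.68 and -1.52, and RRP12 is highest in ICM at 1.52.

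The comparisons of ICM and of old cells share the young libraries and are not independent. The direct comparison of ICM with old cells called 14 of the 48 higher and 9 lower in ICM (median log2 change 0.046, all genes -0.0080), where 63.3% of all genes were called, 30.7% higher and 32.6% lower. The higher genes, 29.2% of the 48, were thus near the background share, and the lower ones made up 18.8%. With scaling to the total count alone, which moved the median of all genes in this comparison to 0.11, the split was 24 higher and 5 lower. Of all 48 genes, RRP12, PES1, DDX18, NOP2 and NOLC1 were highest above old cells in ICM; for the last 3 the log2 differences were 0.54 ± 0.068, 0.49 ± 0.076 and 0.46 ± 0.064. BOP1, WDR74, RRP15 and MRTO4 were lowest, with -0.66 ± 0.073, -0.56 ± 0.11, -0.51 ± 0.10 and -0.36 ± 0.072.

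PES1, BOP1 and WDR12, which form 1 complex (PeBoW) that processes the large subunit rRNA precursor, did not move together. PES1 was at 106, 107 and 97.4 CPM in young, 72.2, 71.2 and 75.2 in old and 127, 119.7 and 123 in ICM libraries. It was highest in ICM and lowest in old cells, with no overlap of the groups, and its log2 change was 0.25 ± 0.062 (adjusted p = 0.000988) in ICM, -0.51 ± 0.064 (adjusted p = 3.7e-07) in old cells and 0.76 ± 0.063 (adjusted p = 4.6e-10) between ICM and old cells. BOP1, its direct partner, was at 77.4, 75.9 and 75.9 CPM in young, 67.2, 61.8 and 71.3 in old and 39.4, 41.5 and 45.4 in ICM libraries. Here the ICM libraries were by far the lowest, with log2 changes of -0.86 ± 0.073 (adjusted p = 5.02e-10) in ICM and -0.20 ± 0.070 (adjusted p = 0.0184) in old cells. WDR12, the third subunit, was at 28.5, 26.6 and 29.1 CPM in young, 16.9, 18.2 and 16.7 in old and 21.6, 19.98 and 20.8 in ICM libraries. It was lowest in old cells and intermediate in ICM, with changes of -0.43 ± 0.084 (adjusted p = 9.56e-05) and -0.70 ± 0.087 (adjusted p = 3.14e-07). Thus BOP1 was lower and PES1 and WDR12 were higher in ICM than in old cells, each past the test (WDR12 0.27 ± 0.088, adjusted p = 0.0113). The fall of BOP1 in old cells did not pass without young replicate 1, without old replicate 2 or without the 3 lysates named above, and across 19 alternative fits its adjusted p was between 0.00124 and 0.173.

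**Figure D4:**
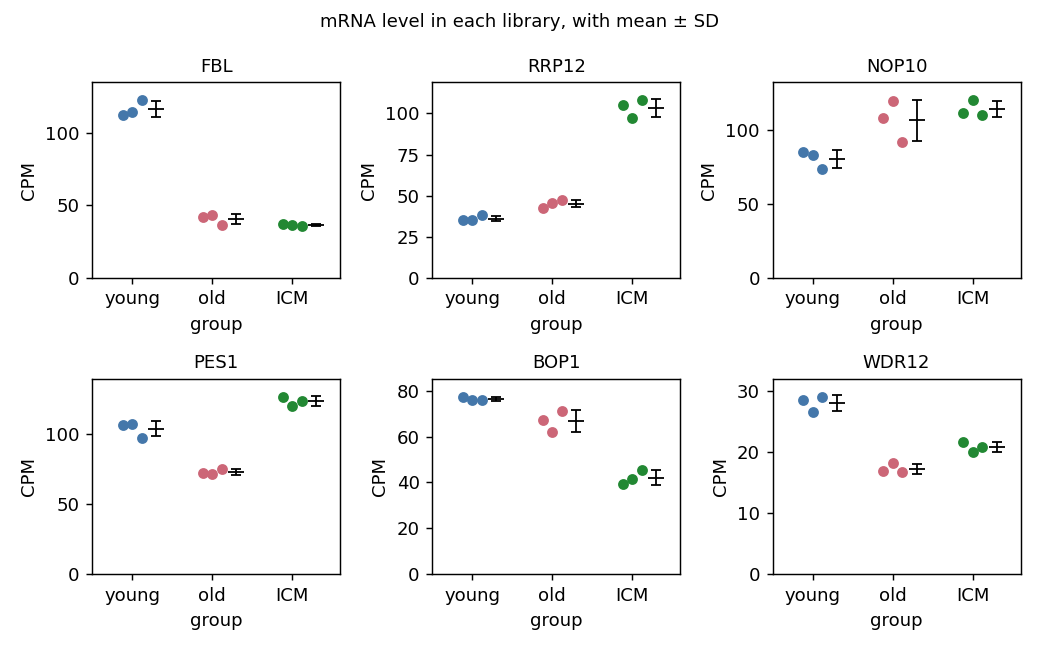
mRNA level in CPM in each library (points) with the group mean ± SD (black), by group, for FBL, RRP12, NOP10 and the 3 PeBoW subunits PES1, BOP1 and WDR12; each axis starts at 0. FBL falls in both states and RRP12 is far higher in ICM, while PES1 is highest, BOP1 lowest and WDR12 intermediate in ICM cells.

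Footprints on the coding sequences were read at far lower depth than mRNA. Of the 48 genes, 40 passed the Ribo-seq filter, and POLR1C, RRP9, GAR1, NOC4L, DDX10, RRP1, WDR74 and NIP7 did not. The filter asks for a minimum level in at least 3 libraries of any group. A gene high in young cells alone can thus pass and then show only a fall from them. The counts and medians below carry this limit. In ICM against young cells 8 of the 40 fell and 3 rose (median log2 change -0.49, all genes -0.00045), where 26.6% of 4643 genes were called, 12.9% lower and 13.7% higher. For old against young cells 16 of the 40 fell and none rose (median -0.55, all genes 0.017), against a background of 36.3% called, 17% lower and 19.3% higher. Between ICM and old cells 2 rose and 1 fell, where 13.4% were called, 5.79% higher and 7.62% lower. Without those 3 lysates all 48 passed the filter, and the counts were 2 higher and 11 lower in ICM, 0 and 19 in old cells, and 2 and 3 between ICM and old cells. With young replicate 2, young replicate 3 or ICM replicate 1 left out, 6, 5 and 6 genes were called in ICM, and with young replicate 2, young replicate 3, old replicate 1 or old replicate 3 left out, 6, 3, 4 and 7 were called in old cells. DESeq2 called 7, 2 and 0 genes in the 3 comparisons. Without the filter all 48 were tested, with 1 higher and 9 lower in ICM and 0 and 12 in old cells against young.

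NPM1 and FBL footprints fell in both states, and at the adjusted p of 0.05 these calls held in all 18 other fits that tested NPM1 and all 16 that tested FBL. NPM1 was at 436, 475 and 497 CPM in young, 233, 322 and 257 in old and 197, 232 and 137 in ICM libraries, with log2 changes of -1.29 ± 0.25 (adjusted p = 0.000126) in ICM and -0.94 ± 0.19 (adjusted p = 0.000221) in old cells. FBL was at 218, 121 and 114 CPM in young, 49.1, 40.2 and 32.8 in old and 59.1, 13.6 and 0 in ICM libraries, from 12, 1 and 0 footprints in the ICM libraries, with log2 changes of -1.62 ± 0.47 (adjusted p = 0.00905) and -1.49 ± 0.29 (adjusted p = 0.000125). For both genes the young libraries lay above all others. UTP20 and RRP15 footprints fell further than their mRNA in point estimate: UTP20 was at 99.0, 65.5 and 94.2 CPM in young, 19.9, 40.2 and 36.9 in old and 19.7, 0 and 22.8 in ICM libraries, with changes of -2.41 ± 0.64 (adjusted p = 0.00482) and -1.68 ± 0.35 (adjusted p = 0.000246). For RRP15 the libraries gave 59.4, 81.5 and 74.4 CPM in young, 36.3, 20.1 and 30.8 in old and 14.8, 0 and 22.8 in ICM libraries, and the changes were -2.59 ± 0.66 (adjusted p = 0.00311) and -1.17 ± 0.32 (adjusted p = 0.004). These values rest on few counts, since the 3 ICM libraries held 4, 0 and 1 footprints of UTP20 and 3, 0 and 1 of RRP15. For FBL, UTP20 and RRP15 the 3 highest libraries were the young ones, so passing the filter depended on the group where they were high. Their falls from young cells are read with that limit.

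Abundant NCL fell by less, from 1287, 1058 and 1078 CPM in young to 713, 1046 and 759 in old and 764, 737 and 548 in ICM libraries (-0.65 ± 0.20, adjusted p = 0.0116 in ICM, -0.49 ± 0.18, adjusted p = 0.0288 in old cells). DKC1 fell in both (-1.34 ± 0.45, adjusted p = 0.0246 and -0.64 ± 0.26, adjusted p = 0.0499), with 8, 3 and 1 footprints in the ICM libraries. In ICM and old cells the NCL calls held in 17 and 10 of 18 other fits, and the DKC1 calls in 11 and 8 of 16. MRTO4 was at 119, 95.9 and 69.4 CPM in young, 81.1, 101 and 61.6 in old and 9.85, 27.3 and 22.8 in ICM libraries. Only the ICM libraries were low, from 2, 2 and 1 footprints, and the change was -2.36 ± 0.61 (adjusted p = 0.00367) against young and -2.24 ± 0.62 (adjusted p = 0.0108) against old cells, where old against young gave -0.12 ± 0.27 (adjusted p = 0.761). NOC3L fell in both states (-2.10 ± 0.59 and -1.34 ± 0.32), and TCOF1, NOLC1, NOP58, UTP15, TSR1, NOP2, DDX18, GNL2 and GNL3 fell in old cells, with log2 changes between -1.44 and -0.61. None of these calls held in every other fit, and those of NOP58, TSR1 and NOP2 held in 9 of 17, 8 of 16 and 9 of 16.

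Of the 4 genes whose mRNA rose in ICM, RRP12 and NOP10 also rose in footprints, PES1 did not pass and DDX10 was not tested. RRP12 was at 79.2, 70.3 and 85.3 CPM in young, 98.8, 40.2 and 119 in old and 237, 164 and 137 in ICM libraries. The ICM libraries lay above all others, with a log2 change of 1.33 ± 0.30 (adjusted p = 0.00109) against young and 0.96 ± 0.30 (adjusted p = 0.0248) against old cells. For NOP10 the libraries gave 39.6, 73.5 and 75.7 CPM in young, 59.0, 141 and 67.7 in old and 148, 164 and 137 in ICM libraries, and the change was 1.03 ± 0.33 (adjusted p = 0.0189) against young and 1.19 ± 0.34 (adjusted p = 0.015) against old cells, while old replicate 2, at 141 CPM from 7 footprints, reached the ICM range; it is 1 of the 3 libraries that stood apart. The NOP10 calls held in 9 and 8 of 16 other fits (adjusted p up to 0.173 and 0.229), and were lost with DESeq2 and without young replicate 2, young replicate 3 or ICM replicate 1. The call against young was also lost without ICM replicate 2, and the call against old without old replicate 1 or old replicate 3. The rise of RRP12 over young was lost in 1 of 16 other fits, without ICM replicate 1 (log2 change 0.83, adjusted p = 0.236), and the rise over old held in 6 of 16 and was 0.46 (adjusted p = 0.607) without that library. The call against old was also lost on leaving out any 1 of young replicates 2 and 3 and old replicates 1, 2 and 3. Of RRP12 the ICM libraries hold 48, 12 and 6 footprints. PES1 footprints did not pass (0.53 ± 0.30, adjusted p = 0.19 in ICM, -0.023 ± 0.23, adjusted p = 0.95 in old cells), nor did those of BOP1 (-0.63 ± 0.42, adjusted p = 0.29 and 0.48 ± 0.24, adjusted p = 0.119), MYC (-0.51 ± 0.40, adjusted p = 0.371 and -0.43 ± 0.26, adjusted p = 0.206) and POLR1A (-0.56 ± 0.40, adjusted p = 0.32 and -0.17 ± 0.25, adjusted p = 0.613). NOP56 did not pass either (-0.070 ± 0.27, adjusted p = 0.87 and -0.12 ± 0.20, adjusted p = 0.651).

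RRP1, a large subunit factor that did not pass the filter, had no footprint in the 350091 CDS reads of the 3 ICM libraries. With a floor of 3 counts over the group this allows up to 8.57 CPM. The young libraries held 99 footprints (40.3 CPM) and the old libraries 101 (43.7 CPM). On these summed reads ICM was at least 4.70-fold lower than young and at least 5.10-fold lower than old. The bounds cover counting error only and leave out the spread between replicates. Replicate 1 held 224982 of the ICM reads, and the difference was not tested. The mRNA of RRP1 was at 35.6, 36.97 and 35.6 CPM in young, 24.5, 24.0 and 29.6 in old and 21.9, 21.5 and 23.4 in ICM libraries, with a log2 change of -0.70 ± 0.088 in ICM. RRP1, and the values of WDR12 and BYSL in every library, were chosen after their values were seen.

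**Figure D5:**
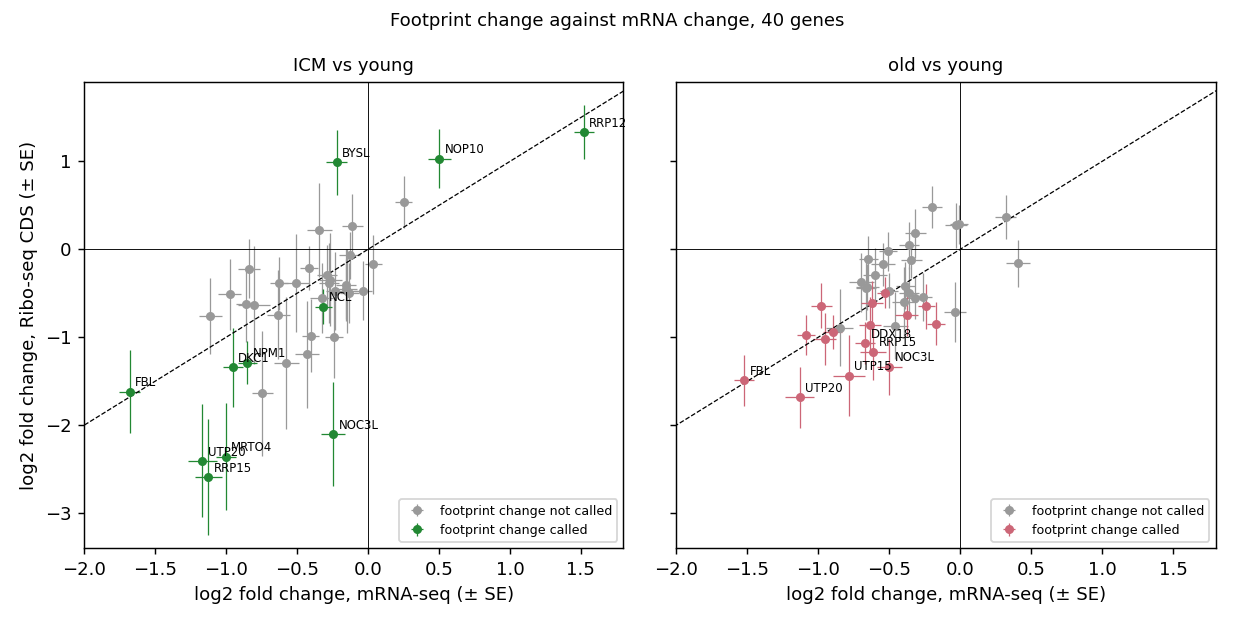
log2 fold change of footprints (vertical, ± SE) against that of mRNA (horizontal, ± SE) for the 40 genes past both filters, in ICM (left) and old (right) against young cells; coloured points passed the test in footprints and the dashed line marks equal change. Most points lie in the lower left, RRP12 and NOP10 lie at the upper right in ICM, and BYSL is the coloured point with lower mRNA and higher footprints.

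In the comparisons with young cells the calls in footprints were mostly also calls in mRNA. All 11 genes called in footprints in ICM against young were also called in mRNA, 10 of them in the same direction, and all 16 called in old against young were called in mRNA in the same direction. Of the 40 genes, 33 and 37 were called in mRNA in these comparisons, where 71% and 66.1% of all genes tested were. The overlap is thus near the share of mRNA calls in the set. In ICM against old cells 2 of the 3 genes called in footprints were called in mRNA, and NOP10 was called in footprints alone. There 25 of the 40 genes had the same sign in both assays, and 13 of the 20 called in mRNA, against 36 and 34 of the 40 genes in ICM and in old against young cells. In each comparison with young cells 34 of the 40 footprint changes lay below 0. Of the 48 mRNA changes, 43 in ICM and 45 in old cells did. Signs can thus agree through this common fall alone. The gene called in opposite directions was BYSL (bystin), a factor of late nuclear steps of the small subunit, whose mRNA fell in ICM while its footprints were at 79.2, 57.5 and 52.2 CPM in young, 65.4, 80.5 and 55.4 in old and 103, 123 and 114 in ICM libraries. The log2 change of BYSL footprints was 0.99 ± 0.37 (adjusted p = 0.0426), from 21, 9 and 5 footprints in ICM, and this call held in 2 of 16 alternative fits. Pearson's r between the log2 changes of mRNA and footprints over the 40 genes was 0.72 in ICM against young, 0.66 in old against young and 0.49 in ICM against old (Spearman's rho 0.69, 0.59 and 0.37). These values describe genes of the same libraries, which are not independent. Neither the sign counts nor the correlations were taken over all genes, so how far they are particular to the set was not tested.

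Translational efficiency, the footprint level relative to the mRNA level, asks whether the load of ribosomes per mRNA changed. edgeR's test of the interaction of assay and condition called none of the 40 genes in any of the 3 comparisons, where 2.38%, 1.43% and 0.346% of 4618 genes were called, and DESeq2 called none either. By direction, the background was 1.36% higher and 1.02% lower in ICM against young, 0.693% and 0.736% in old against young, and 0.152% and 0.195% in ICM against old. At an unadjusted p under 0.05 there were 4, 3 and 2 genes. The median log2 change of the 40 genes was -0.18 in ICM against young (all genes 0.063), 0.0035 in old against young (all genes -0.0044) and -0.18 in ICM against old (all genes 0.056). BYSL gave the lowest adjusted p, at 1.23 ± 0.40 (adjusted p = 0.0932) in ICM against young. Next were NOC3L at -1.88 ± 0.63 (adjusted p = 0.104), MRTO4 at -1.42 ± 0.67 (adjusted p = 0.298) and RRP15 at -1.57 ± 0.75 (adjusted p = 0.303). For MRTO4 against old cells the value was -1.91 ± 0.65 (adjusted p = 0.22) and for NOP10 1.04 ± 0.35 (adjusted p = 0.216). For FBL the change was 0.044 ± 0.55 in ICM and 0.044 ± 0.32 in old cells, and for NPM1 -0.46 ± 0.25 and -0.019 ± 0.19. The intervals of 2 SE to either side ran from -1.05 to 1.13 for FBL and from -0.96 to 0.035 for NPM1 in ICM. The SE of the 40 genes had a median of 0.45 in ICM against young and 0.29 in old against young.

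Many other ribosome biogenesis genes fell as well. Of 87 further assembly factors, polymerase I subunits and snoRNP proteins, 48 fell and 12 rose in mRNA in ICM against young (median log2 change -0.27), where 36.1% of all genes fell and 34.9% rose. In old against young 63 fell and 12 rose (median -0.39), against 33.7% and 32.4% of all genes. Between ICM and old cells 34 were higher and 23 lower in ICM, against 30.7% and 32.6% of all genes. The strongest falls in ICM were RRS1 (-1.14), NOP53 (-1.11), PAK1IP1 (-1.07), TAF1D (-1.01) and the polymerase I subunit POLR1E (-1.0), and in old cells NOP53 (-1.19) and PWP2 (-1.0). Genes that rose included the helicase DDX24 (0.94 in ICM), FTSJ3 (0.68 in ICM) and SBDS (0.57 in ICM and 0.82 in old cells), the factor that readies the large subunit for translation. NAT10, which acetylates rRNA, was 0.88 higher on the log2 scale in ICM than in old cells. In footprints 52 of the 87 passed the filter, and in ICM 7 fell, a share of 13.5% that was near the background of 12.9%, and 2 rose. In old cells 18 fell and 2 rose, against 17% and 19.3% of all genes. These genes were chosen by function with results of these data already known.

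MYC acts with MAX, and it is opposed by the MXD proteins and MNT, which also bind MAX. Of 9 genes of this network (MAX, MXI1, MXD1, MXD3, MXD4, MNT, MGA, MLX and MLXIP), 5 rose and 2 fell in ICM mRNA, against 34.9% and 36.1% of all genes, and 5 rose and 1 fell in old cells, against 32.4% and 33.7%. With 9 genes these counts are a description. MXI1, an MXD protein, was at 15.0 ± 2.34 CPM in young, 25.9 ± 1.57 in old and 30.0 ± 1.82 in ICM cells (SD, n = 3), with log2 changes of 1.00 in ICM and 0.79 in old cells. MXD4 rose by 0.53 and 0.48 and MXD1 by 0.53 and 0.44 on the log2 scale, whereas MXD3 fell in ICM (-0.77) and did not pass in old cells (-0.17). MAX did not pass in either comparison (-0.035 and 0.020). MGA, a larger MAX partner, fell by 0.88 on the log2 scale in old and by 0.38 in ICM cells.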

How the data were processed

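IMR90 cells in 3 groups of 3 replicates, taken from the sample titles, were measured by mRNA-seq and Ribo-seq. Per the study's methods, cycloheximide lysates were divided between the assays and mRNA-seq used poly(A) RNA. The deposited tables hold estimated counts per gene symbol and region, not scaled to depth. The submitters' processing notes name STAR 2.6.0c, featureCounts and GRCh37 for the series, and which of these made the tables is not given in the sources used here. CDS counts were used for Ribo-seq and the sum of 5′ UTR, CDS and 3′ UTR counts for mRNA-seq, rounded. CPM values were scaled by TMM.

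Each assay was fitted in edgeR 4.0.16 (R 4.3.3; glmQLFit, TMM, filterByExpr) with all 9 libraries, two-sided, with Benjamini-Hochberg adjustment over all genes tested. Translational efficiency was the interaction of assay and condition over 18 libraries with the lysate as a block. Functions were tested on simulated data, with a 2-fold change in ICM set in 200 genes of each measure. The fits called 90.5% of them in mRNA-seq, 52.5% in Ribo-seq and 49% in translational efficiency, with 6, 5 and 5 false calls. Coding lengths came from GENCODE on GRCh37, with the canonical transcript where one is marked. Alternatives were DESeq2 1.42.0 and other scalings, filters, thresholds, blocks, depths and libraries. Named with all libraries were MYC, NPM1, NCL, FBL, DKC1, POLR1A, the 2 most raised and the 2 most lowered called genes of each measure and comparison, and the most abundant gene of each role. The genes, lists and rules were chosen with earlier results of these data known. p-values set a difference between group means against the spread between replicates, estimated over all groups in the fit.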

Additional observations from a re-analysis of the deposited data

Results flagged for a closer look

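PES1 differed between ICM and old cells: its mRNA rose in ICM (0.25 ± 0.062) and fell in old cells (-0.51 ± 0.064) against the same young libraries, and the direct test of ICM against old gave a log2 difference of 0.76 ± 0.063 (edgeR, adjusted p = 4.6e-10), with all 3 ICM libraries above all 3 old ones. Its footprints gave 0.56 ± 0.30 for ICM against old (edgeR, adjusted p = 0.248), which did not pass.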

How the results depend on the processing

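In mRNA-seq 19 of the 41 calls in ICM against young, 34 of 43 in old against young and 4 of 23 in ICM against old held at an adjusted p under 0.05 in every other fit that tested the gene, and in footprints 4 of 11, 2 of 16 and 0 of 3. The stricter threshold on the size of the change, given next, is not among those fits. For the genes named with all libraries, mRNA calls kept their direction and side of the threshold in 776 values, lost the call in 53 and turned in 3, and footprint calls in 253, 68 and 0. The 3 that turned, all with mRNA reads thinned to the Ribo-seq depth, were POLR1A (-0.26) and MYC (0.16) in ICM against old and RRP12 (-0.17) in old against young. Causes were not tested.

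In the order ICM against young, old against young and ICM against old, mRNA counts of calls were 17, 19 and 3 with an absolute log2 change over 0.6 and 9, 21 and 2 after thinning, which lowers depth. Median mRNA changes were -0.58 (old against young) and 0.17 (ICM against old) with total count scaling, -0.42 (ICM against young) and 0.0057 (ICM against old) with CDS reads alone, and 0.24 (ICM against old) after thinning. Total count scaling turned the split of mRNA calls in ICM against old from 14 higher and 9 lower to 24 and 5, with a shift of the median of all genes to 0.11, and gave footprint medians of -0.69 (old against young) and 0.13 (ICM against old).

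Footprint counts in the same order were 7, 2 and 0 with DESeq2, 2, 8 and 0 with a mean of at least 50 counts, 7, 25 and 1 with only the compared groups, and 1, 1 and 0 after thinning to the shallowest library. Without the 3 lysates that stood apart, 5 genes were called in ICM against old. Footprint medians in ICM against young were -0.59 with DESeq2, -0.69 with no filter, -0.33 with a mean of at least 50 counts, -0.67 without the 3 lysates and -0.90 after thinning, where old against young gave -0.77. In ICM against old they were -0.31 with no filter, 0.38 with at least 50 counts, 0.31 with only the compared groups, -0.13 without the 3 lysates and -0.14 after thinning.

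For translational efficiency, 2 genes passed in ICM against young at an adjusted p under 0.15 (edgeR), 1 in old against young with only the compared groups and 1 in ICM against old with no filter. Medians in ICM against young were -0.29 with DESeq2, -0.39 with no filter, 0.024 with at least 50 counts, -0.047 with only the compared groups, -0.37 without the 3 lysates and -0.079 after thinning of mRNA, where old against young gave 0.19. In ICM against old they were -0.42, 0.097, 0.13 and -0.31 with no filter, at least 50 counts, only the compared groups and without the 3 lysates.

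Deviations of same-numbered samples from their group means correlated at r of -0.093 to 0.13 in mRNA-seq and 0.0021 to 0.039 in Ribo-seq. Both assays of 1 lysate, which are paired, gave r of -0.071 to 0.12. The check therefore cannot tell whether replicate numbers pair the groups. The replicate block left 41, 43 and 23 mRNA calls and 8, 4 and 1 footprint calls. Without the lysate block 2, 3 and 0 genes were called in translational efficiency.

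Leaving out each library in turn gave 37 to 41, 41 to 43 and 17 to 23 mRNA calls, with medians of -0.39 to -0.34, -0.50 to -0.45 and 0.016 to 0.065. Footprint calls ran from 5 to 13, 3 to 23 and 0 to 4, with medians of -0.80 to -0.41, -0.60 to -0.46 and -0.44 to 0.041. In ICM against old, 1 footprint call was left without young replicate 2, young replicate 3, old replicate 3 or ICM replicate 1, and 0 without old replicate 1. Translational efficiency gave 0 to 0, 0 to 0 and 0 to 1 calls, the 1 without young replicate 1, old replicate 2, ICM replicate 2 or ICM replicate 3, and medians of -0.55 to -0.19, -0.088 to 0.045 and -0.59 to -0.13. Depth limits the footprints, since 14 of the 48 genes had under 10 in ICM.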
